A study of Mus musculus with 32 samples.

Results

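Oligodendrocytes are the glial cells that wrap the axons of the central nervous system in myelin, a compacted membrane rich in a small set of proteins and in galactolipids. Lineage transcription factors such as Olig2 and Sox10 establish the cell, Myrf switches on myelin genes as it matures, and the mature cell keeps a high output of membrane proteins, lipid enzymes and metabolic support proteins. A set of 33 mouse genes of this programme was examined, chosen by name for these roles and with earlier results of these data known. For 31 of them the array carries a probe set annotated with that gene symbol alone, out of 19938 genes named in this way, and each of the 31 has 1 such probe set. The probe set of Evi2a is annotated with several symbols and Enpp2 has no probe set under its symbol alone, so neither was analysed here. The values are log2 intensities, a relative brightness on an Affymetrix whole-transcript array, and they are compared between arrays for one gene and not between genes.

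All mice and cells were of the BALB/c strain, described as wild type for the mice. BAL17 is a mouse B cell lymphoma line, BAL17VII a line derived from it, and 500000 cells of either were implanted into the brain to model lymphoma that arises there. Whole brains were taken at day 21 after BAL17 implantation, at day 21 after BAL17VII implantation, at day 28 after BAL17 implantation, and at day 28 from mice injected with PBS and no cells, with 5 brains in each group. There was no PBS group at day 21, so implantation and day cannot be told apart in comparisons of day 21 brains with PBS brains. Cultured BAL17 and BAL17VII cells, with 6 arrays of each, serve as the background level of cells that are not glia, and the labels do not say whether they came from separate cultures. In whole-brain RNA, fewer oligodendrocytes and less RNA per oligodendrocyte cannot be told apart. Nor can either be told apart from a larger share of RNA from lymphoma cells or a difference in the regions sampled.

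Arrays of 1 group correlated at 0.979 to 0.994, and 26 of the 31 genes lay above the median of all probe sets in each of the 20 brains. Some brains stood apart. The brain labelled BAL17VII day 21 replicate 1 had the highest value of all 20 brains for 23 of the 31 genes. Its mean over 13 B lineage genes was 6.03, inside the PBS range of 5.88 to 6.14, where the other BAL17VII brains had 7.0 to 7.50. PBS replicate 2 was the highest PBS brain for 26 of the 31 genes, and BAL17 day 21 replicate 2 was the highest of its group for 25. These 3 brains also had the highest mean over 7 hindbrain markers in their groups, at 7.06, 6.98 and 6.35. Of these 7 markers, 2 passed the intensity filter described below. Their mean over the PBS brains was 6.04 for all 7, near the 5.86 and 5.85 of the cultured BAL17 and BAL17VII cells. At the low end, BAL17 day 21 replicate 4 had the lowest value of all brains for 14 genes and BAL17 day 28 replicate 4 for 8.

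The mean over the 31 genes was lower in BAL17 brains than in PBS brains at both days, and close to the PBS level in BAL17VII brains. For replicates 1 to 5 it was 8.66, 9.05, 8.71, 8.69 and 8.91 in the PBS brains, with a mean of 8.80 ± 0.17 (SD, n = 5). In BAL17 brains it was 8.08, 8.58, 8.15, 7.93 and 8.08 at day 21 (mean 8.16 ± 0.25, n = 5) and 8.33, 8.36, 8.24, 8.07 and 8.22 at day 28 (mean 8.24 ± 0.11, n = 5). Every BAL17 brain lay below every PBS brain. In BAL17VII brains the mean was 9.21, 8.65, 8.90, 8.60 and 8.68 (mean 8.81 ± 0.25, n = 5), and the group overlapped the PBS group while lying wholly above the BAL17 brains. The cultured lines had 6.28 ± 0.06 for BAL17 and 6.30 ± 0.09 for BAL17VII (SD, n = 6 each), far below any brain.

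**Figure D1:**
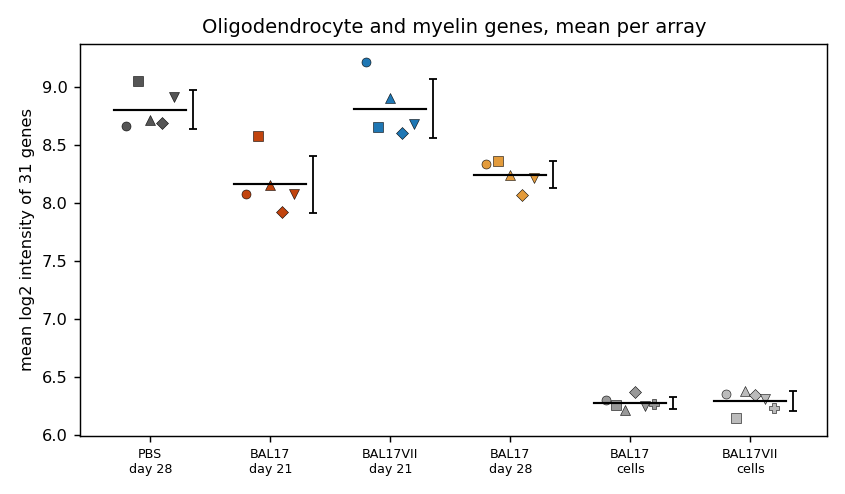
Mean log2 intensity of the 31 genes on each of the 32 arrays, by group; marker shapes give the replicate number, horizontal lines the group mean and bars 1 SD on either side. The BAL17 brains, at 7.93 to 8.58, lie below the PBS brains, at 8.66 to 9.05, and the cultured lines lie near 6.3.

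To show the regulatory DNA beside the values, the 250 bases before the annotated start were read for the 22 of 31 genes found in the RefSeq promoter table (assembly GRCm38.p6). They were searched on both strands for ACAAAG and AACAAT, the core letters bound by SOX proteins, the family of Sox10, and the 2 motifs may overlap in a sequence. ACAAAG was present before Cnp, Gjb1, Mag, Mobp and Opalin, 5 of 22 or 22.7%, against 16.5% of all 27025 promoters. AACAAT was present before Aspa, Enpp6, Gjb1 and Olig2, 4 of 22 or 18.2%, against 9.65% of all promoters. At least one of them was found in 8 of 22 (36.4%) against 24.2%. A match describes the letters and is not a bound site. The sequences below belong to 3 structural genes and 2 lipid enzymes described next, 4 with a match (in capitals) and Ugt8a with none, each printed 5′ to 3′ on the strand of the gene. They are Opalin (chr19:41077114-41077363, minus strand, match 139 bases before the start), Mag (chr7:30914864-30915113, minus strand, 126 bases before, 1 of 3 starts in the table), Cnp (chr11:100574689-100574938, plus strand, 167 bases before), Aspa (chr11:73324638-73324887, minus strand, 249 bases before) and Ugt8a (chr3:125938653-125938902, minus strand).
Opalin: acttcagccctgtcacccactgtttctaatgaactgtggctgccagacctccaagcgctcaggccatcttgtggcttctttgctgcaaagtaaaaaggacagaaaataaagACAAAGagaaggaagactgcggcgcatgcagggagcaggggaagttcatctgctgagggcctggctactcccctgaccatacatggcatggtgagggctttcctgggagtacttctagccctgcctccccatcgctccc
Mag: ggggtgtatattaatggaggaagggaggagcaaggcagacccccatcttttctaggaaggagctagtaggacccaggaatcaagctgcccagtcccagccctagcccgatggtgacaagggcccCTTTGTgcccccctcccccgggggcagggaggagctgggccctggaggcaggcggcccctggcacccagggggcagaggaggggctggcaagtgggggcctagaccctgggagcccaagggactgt
Cnp: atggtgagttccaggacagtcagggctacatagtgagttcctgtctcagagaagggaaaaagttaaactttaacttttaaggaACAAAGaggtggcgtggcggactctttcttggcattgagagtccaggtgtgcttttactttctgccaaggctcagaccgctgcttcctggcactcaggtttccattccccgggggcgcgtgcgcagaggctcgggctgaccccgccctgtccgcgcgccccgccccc
Aspa: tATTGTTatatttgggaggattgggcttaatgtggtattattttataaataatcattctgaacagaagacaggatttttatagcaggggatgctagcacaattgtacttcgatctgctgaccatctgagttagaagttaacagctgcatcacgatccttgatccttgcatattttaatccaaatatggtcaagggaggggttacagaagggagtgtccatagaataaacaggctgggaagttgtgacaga
Ugt8a: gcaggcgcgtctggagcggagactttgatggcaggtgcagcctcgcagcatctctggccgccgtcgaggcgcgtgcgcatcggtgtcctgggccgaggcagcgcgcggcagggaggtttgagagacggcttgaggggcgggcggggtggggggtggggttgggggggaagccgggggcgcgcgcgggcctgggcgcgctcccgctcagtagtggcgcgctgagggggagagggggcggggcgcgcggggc

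The comparison of BAL17 brains with PBS brains asks how the programme stands once lymphoma has grown in the brain. Of the 31 genes, 30 passed the intensity filter and were tested, and Nkx2-2 did not. At day 21, 25 of the 30 fell and none rose (limma, adjusted p under 0.05 over 11965 genes), beside 32% of all genes tested that fell and 13.1% that rose. At day 28, 26 fell and none rose, beside 21.6% and 8.87% of all genes. Without PBS replicate 2, 22 fell, beside 1654 of all 11965 genes. The median difference from PBS over the 30 genes was -0.68 at day 21 and -0.62 at day 28, against -0.11 and -0.10 over all genes. At day 21, 7 genes fell at least 2-fold, Ugt8a, Cryab, Car2, Opalin, Bcas1, Ermn and Aspa, beside 43 of all 11965 genes. At day 28 only Mag of the 30 did so, beside 16 of all genes. For 12 of the 30 genes at day 21 all BAL17 brains lay below all PBS brains (18.1% of all genes), and for 23 at day 28 (15.4%). Both comparisons use the same 5 PBS brains. Centring each array on its median raised the all-gene median at day 21 from -0.11 to 0.01 and the higher share of all calls from 29.1% to 52.1%, and at day 28 that share went from 29.1% to 56.0%. After that centring 22 and 23 of the 30 genes fell, beside 20% and 10.6% of all genes.

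Among 13 tested genes for proteins of the myelin membrane and its cytoskeleton, 10 fell at day 21 (median -0.67) and 12 at day 28 (median -0.71). Mag, an adhesion protein of the myelin membrane that faces the axon, was measured at 8.69, 9.21, 8.55, 8.79 and 8.94 in the PBS brains. In BAL17 brains it was at 7.85, 8.14, 7.95, 7.61 and 7.73 at day 21 and at 7.83, 8.07, 7.71, 7.35 and 7.73 at day 28. All 10 BAL17 brains lay below all PBS brains, with differences of -0.98 ± 0.17 (SE, adjusted p = 0.000102) at day 21 and -1.10 ± 0.17 (adjusted p = 7.21e-05) at day 28, a level 0.467 times that of PBS. Opalin, a membrane protein of mature oligodendrocytes, was at 6.79, 7.58, 6.98, 7.29 and 7.79 in the PBS brains. At day 21 the BAL17 brains had 6.21, 6.78, 5.64, 5.89 and 5.83, and at day 28 they had 6.88, 6.23, 6.71, 5.98 and 6.08. It fell by 1.22 ± 0.22 (adjusted p = 0.000196) at day 21 with no overlap and by 0.91 ± 0.22 (adjusted p = 0.00501) at day 28, where BAL17 replicate 1 lay above the lowest PBS brain. Bcas1, which marks oligodendrocytes that are building myelin, fell by 1.16 ± 0.20 and 0.81 ± 0.20 at the 2 days. Ermn, the cytoskeletal protein ermin, fell by 1.10 ± 0.19 and 0.72 ± 0.19.

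Several structural genes showed smaller differences than Mag and Opalin. Mbp, the basic protein that holds the inner faces of the membrane together, was at 9.69, 9.96, 9.62, 9.56 and 9.73 in PBS brains. It was at 9.31, 9.67, 9.32, 9.07 and 9.24 in BAL17 brains at day 21 and at 9.39, 9.46, 9.27, 9.20 and 9.39 at day 28. It fell by 0.39 ± 0.10 (adjusted p = 0.00387) at day 21, where BAL17 replicate 2 overlapped the PBS brains, and by 0.37 ± 0.10 (adjusted p = 0.0104) at day 28 with no overlap. Relative to the neuron list described below, the day 21 difference of Mbp was 0.05 and was not called. Mog, found on the outer surface of the sheath, fell by 0.67 ± 0.18 and 0.83 ± 0.18, and Cnp, a phosphodiesterase of the non-compacted myelin, by 0.57 ± 0.14 and 0.71 ± 0.14. Plekhb1 (-0.71 and -0.75), Pllp, the proteolipid plasmolipin (-0.78 and -0.64), and Cldn11, the tight junction claudin of myelin (-0.31 and -0.31), fell at both days, Cldn11 with a difference of 0.12 at day 21 and 0.01 at day 28 relative to the neuron list. Mobp and the tetraspanin Tspan2 fell at day 28, by 0.47 ± 0.13 and 0.41 ± 0.13. At day 21 their differences of -0.20 ± 0.13 and -0.29 ± 0.13 did not pass the test.

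Mal, a proteolipid of membrane rafts in myelin, stood out from the other structural genes. It was at 9.81, 10.20, 9.90, 9.74 and 9.93 in PBS brains, at 9.93, 10.41, 10.04, 9.73 and 9.81 in BAL17 brains at day 21, and at 9.62, 9.92, 9.62, 9.71 and 9.74 at day 28. The groups overlapped, and the differences of 0.07 ± 0.11 (adjusted p = 0.63) and -0.19 ± 0.11 (adjusted p = 0.201) did not pass the test. It lay more than 3 log2 units above the cultured lines in every group mean.

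**Figure D2:**
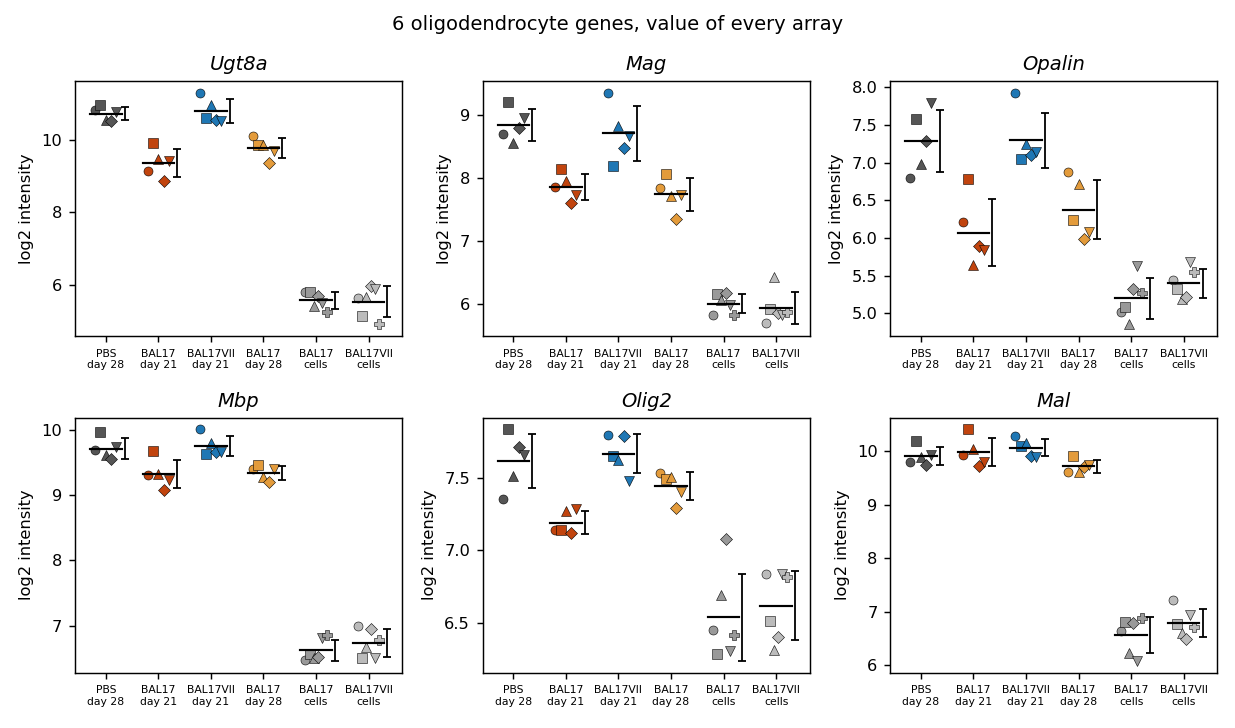
Log2 intensity of Ugt8a, Mag, Opalin, Mbp, Olig2 and Mal on each array, each panel with its own axis; marker shapes give the replicate number, lines the group mean and bars 1 SD on either side. Ugt8a and Mag of the BAL17 brains lie between the PBS brains and the cultured lines, while Mal of the BAL17 brains, at 9.62 to 10.41, overlaps the PBS brains.

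Both connexin genes, whose proteins form the gap junctions of oligodendrocytes and myelin, fell at both days. Gjc3 was at 9.87, 10.30, 9.98, 10.02 and 10.14 in PBS brains, at 9.31, 9.84, 9.39, 8.96 and 9.32 in BAL17 brains at day 21 and at 9.75, 9.67, 9.57, 9.51 and 9.50 at day 28. No BAL17 brain reached the PBS range, and the differences were -0.69 ± 0.13 (adjusted p = 0.000212) and -0.46 ± 0.13 (adjusted p = 0.0113). Gjb1 was at 6.57, 7.0, 6.50, 6.46 and 6.94 in PBS brains, at 5.99, 6.51, 6.01, 6.08 and 6.10 in BAL17 brains at day 21 and at 6.10, 6.43, 6.26, 5.84 and 6.22 at day 28. It fell by 0.56 ± 0.15 (adjusted p = 0.00498) and 0.52 ± 0.15 (adjusted p = 0.0128), with BAL17 replicate 2 inside the PBS range at day 21 and no overlap at day 28.

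Of 4 genes for enzymes of myelin lipid synthesis, 3 fell at both days, with a median over the 4 of -0.75 at day 21 and -0.55 at day 28. Ugt8a, the galactosyltransferase that makes galactosylceramide, was at 10.81, 10.95, 10.55, 10.50 and 10.77 in PBS brains. In BAL17 brains it was at 9.14, 9.91, 9.46, 8.85 and 9.40 at day 21 and at 10.09, 9.84, 9.84, 9.36 and 9.68 at day 28. No BAL17 brain reached the PBS range, and Ugt8a fell by 1.36 ± 0.17 (adjusted p = 3.36e-06) to 0.389 times the PBS level at day 21 and by 0.95 ± 0.17 (adjusted p = 0.000383) to 0.516 times at day 28. Aspa, which splits N-acetylaspartate and so frees acetate for lipid synthesis, fell by 1.05 ± 0.22 and 0.68 ± 0.22, the latter with an adjusted p of 0.0217 that became 0.0652 without PBS replicate 2. Fa2h, which hydroxylates the fatty acids of myelin galactolipids, fell by 0.45 ± 0.13 and 0.43 ± 0.13. Gal3st1, the sulfotransferase that turns galactosylceramide into sulfatide, was at 6.54, 6.40, 6.62, 6.46 and 6.58 in PBS brains and between 6.37 and 6.63 in the 10 BAL17 brains. Its values did not exceed the highest cultured line array (6.82) in any brain, so it lay inside the range of the lines.

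All 6 tested genes of metabolic, transport and support functions fell at both days (medians -0.91 and -0.85). Car2, the carbonic anhydrase of oligodendrocytes, was at 10.25, 10.69, 10.33, 10.18 and 10.51 in PBS brains. In BAL17 brains it was at 8.94, 9.91, 9.23, 8.60 and 9.08 at day 21 and at 9.83, 9.54, 9.45, 8.97 and 9.21 at day 28. All 10 BAL17 brains lay below the PBS range, and Car2 fell by 1.24 ± 0.20 (adjusted p = 3.84e-05) and 0.99 ± 0.20 (adjusted p = 0.000842). Cryab, a small heat shock protein, was at 9.69, 10.12, 9.61, 9.54 and 9.86 in PBS brains, at 8.07, 9.23, 8.36, 8.06 and 8.29 at day 21 and at 9.25, 8.91, 8.97, 8.63 and 8.74 at day 28. It fell by 1.36 ± 0.18 (adjusted p = 5.29e-06) and 0.86 ± 0.18 (adjusted p = 0.00136), again with no overlap. Gpr37, an orphan receptor of oligodendrocytes, fell by 1.0 ± 0.16 and 0.79 ± 0.16, and Trf, the iron carrier transferrin, by 0.82 ± 0.16 and 0.90 ± 0.16. Enpp6, a choline phosphodiesterase that marks newly formed oligodendrocytes, fell by 0.77 ± 0.21 and 0.84 ± 0.21. Qdpr, which regenerates tetrahydrobiopterin, showed the smallest day 28 difference of this group. It was at 9.01, 9.54, 9.24, 9.28 and 9.44 in PBS brains, at 8.49, 9.23, 8.46, 8.03 and 8.46 at day 21 and at 8.94, 8.73, 8.73, 8.44 and 8.68 at day 28. It fell by 0.77 ± 0.18 (adjusted p = 0.00161) and 0.60 ± 0.18 (adjusted p = 0.0159). The cultured lines themselves had Qdpr at 8.49 to 8.78.

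Of 5 tested transcription factors, 4 fell at day 21 (median -0.31) and 3 at day 28 (median -0.25). In PBS brains Sox10 lay 0.57 and Myrf 0.44 above the mean of the cultured lines, against 5.16 for Ugt8a. Their distance to the line level was thus small, and whether that level is array background was not tested. Olig1 was at 8.25, 8.43, 8.01, 8.06 and 8.15 in PBS brains, at 7.66, 7.86, 7.72, 7.46 and 7.73 at day 21 and at 7.92, 7.90, 7.68, 7.74 and 7.61 at day 28. It fell by 0.50 ± 0.10 (adjusted p = 0.000506) and 0.41 ± 0.10 (adjusted p = 0.00495) with no overlap. Olig2 was at 7.35, 7.83, 7.51, 7.71 and 7.66 in PBS brains, at 7.14, 7.14, 7.27, 7.12 and 7.29 at day 21 and at 7.53, 7.49, 7.50, 7.29 and 7.40 at day 28. It fell by 0.42 ± 0.09 (adjusted p = 0.000506) at day 21, while the day 28 difference of -0.17 ± 0.09 (adjusted p = 0.14) did not pass the test. Sox10 fell by 0.27 ± 0.08 and 0.25 ± 0.08, and Myrf by 0.31 ± 0.09 and 0.26 ± 0.09. Relative to the neuron list, none of the tested transcription factors was called lower, and at day 21 Olig2 stood at 0.01, Sox10 at 0.17 and Myrf at 0.13, none called. The homeobox gene Nkx6-2 was at 7.51, 7.52, 7.56, 7.89 and 7.62 in PBS brains, 7.79, 7.53, 7.64, 7.53 and 7.52 at day 21 and 7.62, 7.63, 7.57, 7.84 and 7.92 at day 28. Its differences of -0.02 ± 0.08 and 0.09 ± 0.08 did not pass the test, and most brains lay within the range of the cultured lines (6.85 to 7.65). Nkx2-2, at 5.99 to 6.44 in the 20 brains, lay within the line range of 6.08 to 6.78 or below it.

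**Figure D3:**
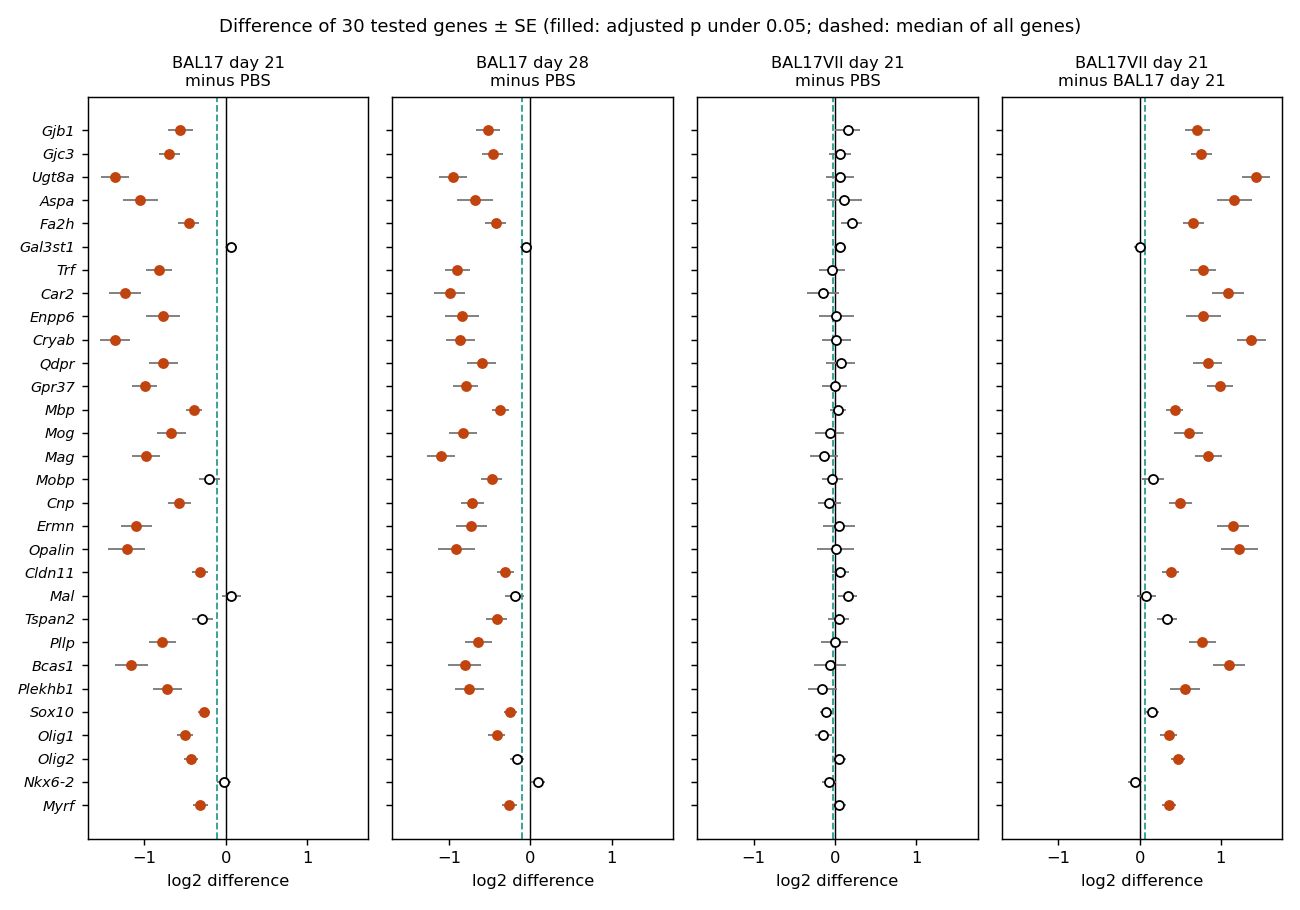
Log2 difference ± SE of the 30 tested genes in 4 comparisons (5 brains a group); filled points passed an adjusted p of 0.05 and the dashed line is the median difference of all 11965 genes tested. Against PBS, 25 and 26 filled points lie to the left at days 21 and 28 and none is filled for BAL17VII; relative to the neuron or astrocyte list some small differences, such as those of Mbp, Sox10 and Myrf, change sign.

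BAL17VII brains at day 21 did not differ measurably from PBS brains in this programme. None of the 30 genes was called (limma), beside 5.01% of all genes. None of the 30 had an unadjusted p under 0.05, beside 2517 of all 11965 genes. The median difference was 0.02, against -0.03 over all genes, and single genes ranged from -0.15 for Plekhb1 and Car2 to 0.21 for Fa2h. The 95% intervals of the 30 differences reached from -0.56 (Car2) to 0.56 (Aspa), so changes of that size are not excluded for single genes. Mag, for example, was at 9.35, 8.19, 8.83, 8.48 and 8.67, on both sides of the PBS mean, with a difference of -0.13 ± 0.17. Ugt8a was at 11.29, 10.61, 10.95, 10.54 and 10.51, with a difference of 0.06 ± 0.17. In both genes the brain labelled replicate 1 was the highest. Leaving out that brain left 0 of the 30 genes called, as did leaving it out together with PBS replicate 2. Of all 11965 genes, 746 and 653 were called in these settings.

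Between the 2 implanted lines at day 21, 24 of the 30 genes were higher in BAL17VII brains and none was lower, beside 17.3% of all genes that were higher and 6.82% that were lower. For 12 genes all BAL17VII brains lay above all BAL17 brains (6.62% of all genes). The 24 called genes were 10 of 13 structural genes, both connexins, 3 of 4 lipid enzymes, all 6 support genes and 3 of 5 transcription factors. In the same comparison 10 of 12 tested B lineage genes (median -0.78) and 9 of 13 mitosis genes (median -0.75) were lower in BAL17VII brains, while 6 of 7 microglial genes were higher (median 0.61). Their part in the result was not tested. This comparison uses the same 5 BAL17 day 21 brains that were set against PBS. Ugt8a was higher by 1.43 ± 0.17 (adjusted p = 2.17e-05), Cryab by 1.37 ± 0.18 (adjusted p = 5.04e-05) and Opalin by 1.23 ± 0.22 (adjusted p = 0.000845). Aspa (1.16 ± 0.22), Ermn (1.15 ± 0.19), Bcas1 (1.10 ± 0.20) and Car2 (1.09 ± 0.20) were higher at least 2-fold as well. Cryab was at 10.10, 9.83, 9.89, 9.42 and 9.65 in BAL17VII brains, and Opalin at 7.93, 7.05, 7.25, 7.11 and 7.14. Both lay above every BAL17 day 21 brain. Mbp (0.43 ± 0.10), Olig2 (0.48 ± 0.09), Olig1 (0.36 ± 0.10) and Myrf (0.36 ± 0.09) were higher by less, while Sox10 (0.16 ± 0.08), Mobp (0.16 ± 0.13), Tspan2 (0.34 ± 0.13), Mal (0.08 ± 0.11), Gal3st1 (0.00 ± 0.07) and Nkx6-2 (-0.06 ± 0.08) did not pass. Without BAL17VII replicate 1 the count was 21, beside 1236 of all 11965 genes that were higher. Mog (0.48), Olig1 (0.30) and Plekhb1 (0.44) were then no longer called.

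**Figure D4:**
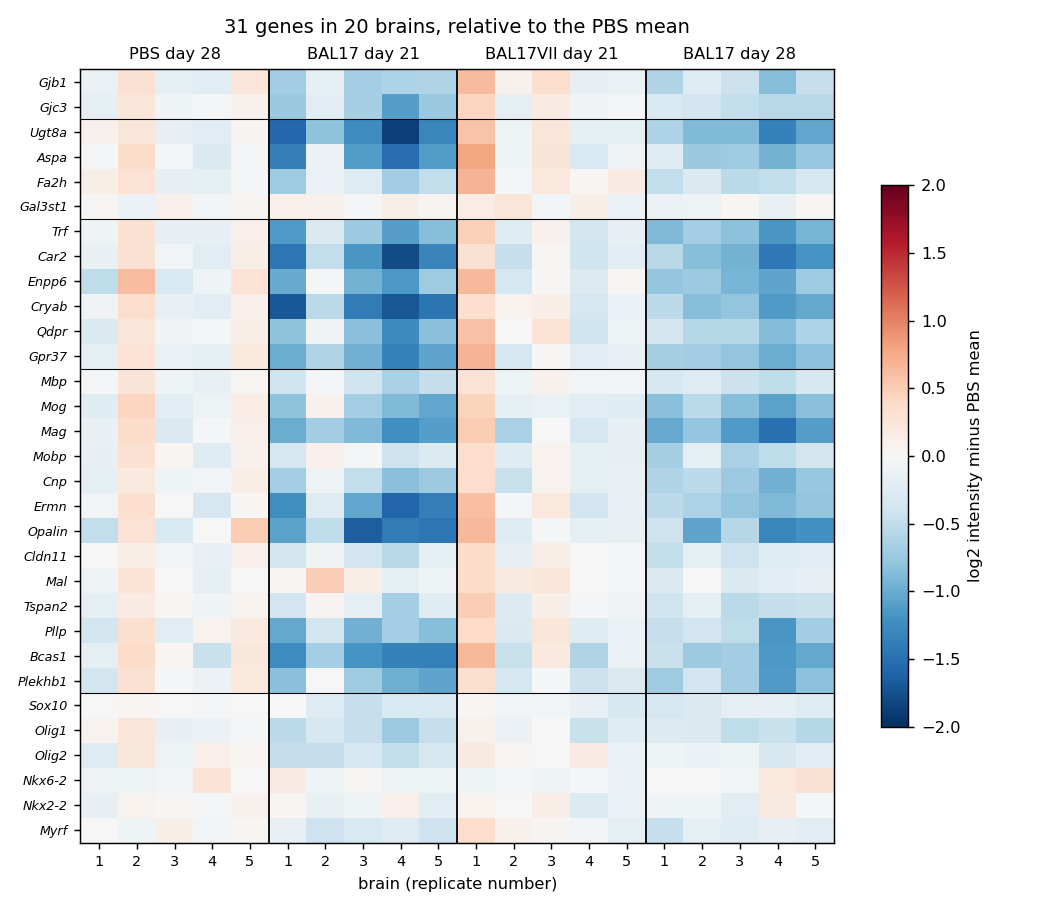
Log2 intensity of each of the 31 genes in each of the 20 brains minus the mean of the PBS brains, with brains in columns and genes in rows grouped by role. The BAL17 columns are lower (blue) for most genes at both days, the column of BAL17VII day 21 replicate 1 is higher (red) for most, and Gal3st1, Nkx2-2 and Nkx6-2 vary little.

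From day 21 to day 28 of BAL17 growth, no gene of the 30 was called in either direction (limma), beside 1.5% of all genes. An unadjusted p under 0.05 was found for 5 of the 30 and for 1573 of all 11965 genes. The median difference of the 30 was 0.04. The 2 groups were close for Mbp (0.02 ± 0.10), Gjb1 (0.03 ± 0.15) and Cldn11 (0.01 ± 0.10), with 95% intervals within -0.28 to 0.34. Cryab was 0.50 ± 0.18 higher at day 28 (adjusted p = 0.187), Ugt8a 0.41 ± 0.17 higher (adjusted p = 0.291) and Olig2 0.25 ± 0.09 higher (adjusted p = 0.153), while Mobp (-0.27 ± 0.13) and Mal (-0.26 ± 0.11) stood lower. Olig2 was the only gene of the 30 with all day 28 brains above all day 21 brains (3.48% of all genes). Without BAL17 day 21 replicate 2, Cryab was called, at 0.70.

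Against the cultured lines, all 5 PBS brains lay above all 12 line arrays for 28 of the 31 genes. This held for 23 genes in BAL17 brains at day 21, 24 at day 28 and 27 in BAL17VII brains. The same count was not made over all genes, so whether these counts are particular to the 31 is not known. At day 21 only 1 of 5 BAL17 brains exceeded all line arrays for Qdpr, Pllp and Myrf, and 4 of 5 did for Opalin and Sox10. Qdpr exceeded the mean of the lines by 0.62 in PBS brains and lay 0.14 below it at day 21 (-0.14), and Pllp went from 0.80 above to 0.02 above. Myrf went from 0.44 to 0.13 above. Ermn, by contrast, lay 5.44 above the lines in PBS brains and 4.34 above them in BAL17 brains at day 21, and Ugt8a 5.16 and 3.80.

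Other genes of the lineage, listed with earlier results of these data known, were read beside these. Of 35 further genes of mature oligodendrocytes 31 were tested. At day 21, 18 fell and 1 rose, beside 32% and 13.1% of all genes. At day 28, 17 fell and 1 rose, beside 21.6% and 8.87%. Each brain was then centred on its neuronal genes, a scaling described below. Of these 31, 3 were then lower and 12 higher at day 21, beside 2.48% and 63.4% of all genes. At day 28, 3 were lower and 4 higher, beside 1.91% and 46.5%. Klk6, a secreted protease (-0.61 ± 0.16 and -0.68 ± 0.16), Tmem63a (-0.49 ± 0.10 and -0.66 ± 0.10) and Efhd1 (-0.74 ± 0.14 and -0.66 ± 0.14) led at day 28. The gene that rose was Apod, the lipid carrier apolipoprotein D, named after its values were seen, by 0.80 ± 0.10 (adjusted p = 2.73e-06) and 0.29 ± 0.10 (adjusted p = 0.0316). Among the 12 higher at day 21 after neuronal centring, some had a higher mean in cultured BAL17 cells than in PBS brains. They were Anln (9.36 against 8.83), Trim59 (8.24 against 6.92), Gpr62 (7.25 against 6.80), Carns1 (7.37 against 7.21) and Slc45a3 (6.51 against 6.27). These genes were named after their values were seen. The rest of the 12 had lower means in these cells, Apod with 6.53 against 11.52. Of 15 tested genes of oligodendrocyte precursors and newly formed cells, 9 fell and 1 rose at day 21, and 10 fell and 1 rose at day 28. Centred on the neuronal genes, 2 were lower and 4 higher at day 21, and 0 lower and 3 higher at day 28. The shares of all genes beside these counts are those given for the mature genes. Pdgfra, the growth factor receptor of precursors, fell by 0.42 ± 0.11 and 0.44 ± 0.11, and Gpr17, a receptor of committed precursors, by 0.72 ± 0.11 and 0.42 ± 0.11. Lhfpl3 (-0.70 ± 0.19), Vcan (-0.49 ± 0.11) and Ptprz1 (-0.48 ± 0.07) led at day 28. Itpr2, also named after its values were seen, rose by 0.21 ± 0.08 and 0.25 ± 0.08, and its mean was 8.78 in cultured BAL17 cells and 9.31 in BAL17VII cells against 7.64 in PBS brains. Markers of Schwann cells, which make myelin in peripheral nerves, were read beside these. Of 3 tested, 2 fell at each day, beside 32% of all genes at day 21 and 21.6% at day 28. They were Pmp22 (-0.83 ± 0.16 and -0.80 ± 0.16) and Egr2 (-1.02 ± 0.15 and -0.59 ± 0.15). Cdh19, named after its values were seen, had differences of 0.00 ± 0.21 (adjusted p = 0.998) and -0.38 ± 0.21 (adjusted p = 0.177). Pmp2 and Ncmap did not pass the filter. Whether Pmp22 and Egr2 report Schwann cells in brain tissue was not tested.

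Marker genes of neurons and astrocytes, the other main cells of brain tissue, were lower in the same brains. Over 17 neuronal genes the mean was 10.64 in PBS brains (range 10.53 to 10.78), 10.21 in BAL17 brains at day 21 (10.16 to 10.32), 10.33 at day 28 (10.28 to 10.39) and 10.54 in BAL17VII brains (10.35 to 10.70). Of the 17 genes, 13 fell at day 21 (median -0.40) and 12 at day 28 (median -0.38), beside 32% and 21.6% of all genes. Over 12 astrocyte genes the mean was 9.36 in PBS brains (9.21 to 9.49), 8.93 (8.76 to 9.24) and 9.07 (8.93 to 9.21) in BAL17 brains at days 21 and 28, and 9.30 (9.10 to 9.53) in BAL17VII brains; 8 of 12 fell at day 21 (median -0.41) and 5 of 12 at day 28 (median -0.23). Syn1 fell by 0.77 ± 0.11 and 0.38 ± 0.11 and Aqp4 by 0.97 ± 0.15 and 0.74 ± 0.15, while Snap25 (-0.08 ± 0.05 and 0.00 ± 0.05) and Gfap (-0.26 ± 0.17 and -0.27 ± 0.17) did not pass. The B lineage mean moved the other way, from 6.07 in PBS brains to 7.71 (7.37 to 7.89) and 7.80 (7.69 to 7.98) in BAL17 brains and 7.02 (6.03 to 7.50) in BAL17VII brains, and Cd79b, part of the B cell receptor, rose by 2.84 ± 0.30 and 2.98 ± 0.30. All 13 tested mitosis genes rose at both days (medians 2.03 and 1.83). Of 7 tested microglial genes 7 fell at day 21 (median -0.41) and 1 at day 28 (median -0.24), and of 6 macrophage genes 4 rose and 1 fell at day 21 (median 0.65) and 3 rose at day 28 (median 0.57). The part of these cell types in the oligodendrocyte differences was not tested.

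Centring each brain on the mean of the neuronal genes subtracts 1 offset from every gene of that brain and is no measure of its composition. After that centring, 12 of the 30 oligodendrocyte genes were lower than in PBS brains at day 21 and 4 were higher, beside 2.48% and 63.4% of all genes. At day 28, 12 were lower and 2 higher, beside 1.91% and 46.5%. Genes still lower at both days included Ugt8a (-0.92 and -0.64), Cryab (-0.92 and -0.55), Car2 (-0.80 and -0.68), Opalin (-0.78 and -0.59), Bcas1 (-0.72 and -0.49), Gpr37 (-0.56 and -0.48) and Mag (-0.54 and -0.78). Those called higher at day 21 were Mal (0.51), Gal3st1 (0.50), Nkx6-2 (0.42) and Mobp (0.24). Between BAL17VII and BAL17 brains 16 of the 30 were higher and 3 lower, beside 2.15% and 55.1%. Centred on the astrocyte genes, 14 were lower and 4 higher at day 21, 14 lower and 1 higher at day 28, and 16 higher and 3 lower in BAL17VII brains; 2.16% and 1.76% of all genes were lower and 57.8% and 31.2% higher at the 2 days, and 1.65% higher and 54.6% lower between the lines.

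**Figure D5:**
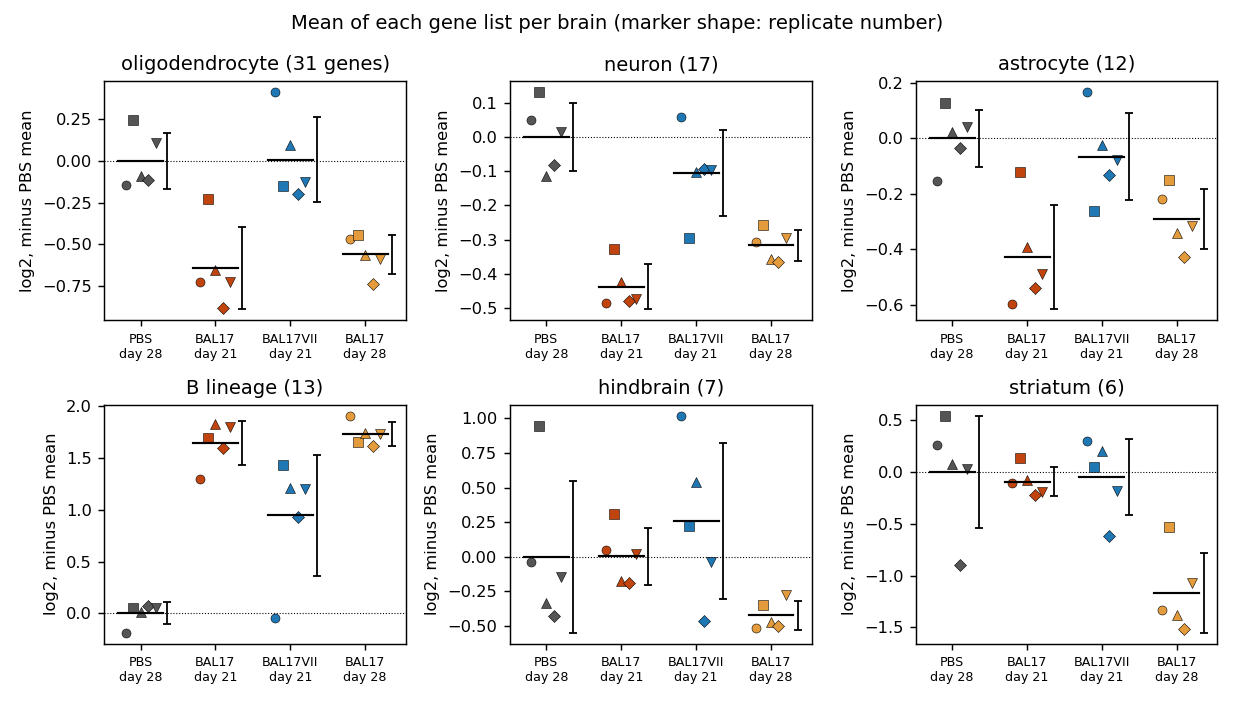
Mean of each gene list per brain, minus the mean of the PBS brains (log2), for oligodendrocyte, neuron, astrocyte, B lineage, hindbrain and striatum genes; marker shapes give the replicate number, lines the group mean and bars 1 SD on either side. The oligodendrocyte, neuron and astrocyte panels are lower in BAL17 brains, the B lineage panel is higher, and the 3 brains highest in the oligodendrocyte panel of their groups are also highest in the hindbrain panel.

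Markers of brain regions also differed between groups. The mean over 6 striatal genes was 9.45 in PBS brains (8.55 to 9.99), 9.35 and 9.40 in BAL17 and BAL17VII brains at day 21, and 8.28 (7.94 to 8.91) in BAL17 brains at day 28. The mean over 10 cerebellar genes was 8.85 in PBS brains, 8.06 and 8.11 in BAL17 and BAL17VII brains at day 21, and 8.48 in BAL17 brains at day 28. Of 6 tested cortical genes 4 fell at day 21 (median -0.58) and 0 were called at day 28 (median 0.01), and of 8 choroid plexus genes 0 fell and 1 rose at day 21 (median 0.02) and 8 fell at day 28 (median -0.85). The part of regional content in the oligodendrocyte differences was not tested. Leaving out PBS replicate 2 and BAL17VII replicate 1, the brains with the highest hindbrain means, gave 25 genes lower at day 21, 26 lower at day 28, 0 called for BAL17VII against PBS and 23 higher for BAL17VII against BAL17. Over all 11965 genes the matching counts were 3367, 1961, 653 and 1354. Without PBS replicate 2 alone the day 28 count was 22, beside 1654 of all genes. Aspa (-0.59), Cldn11 (-0.28), Fa2h (-0.35) and Tspan2 (-0.37) were then no longer called.

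Some calls were lost when 1 brain was left out, with the sign kept in each case below. Cldn11 lost its day 21 call without BAL17 replicate 4 (-0.25) and its day 28 call without BAL17 replicate 1 (-0.26), BAL17 replicate 3 (-0.28), PBS replicate 2 (-0.28) or PBS replicate 5 (-0.28). Myrf lost its day 28 call without BAL17 replicate 1 (-0.21) or 3 (-0.26) or PBS replicate 3 (-0.23) or 5 (-0.25), and Sox10 without BAL17 replicate 1 (-0.22). Aspa lost it without BAL17 replicate 4 (-0.61) and Tspan2 without BAL17 replicate 3 (-0.38). For BAL17VII against BAL17, Mog lost its call without BAL17 replicate 4 (0.55) or 5 (0.51), and Olig1 without BAL17 replicate 4 (0.30). Plekhb1 lost it without BAL17 replicate 1 (0.53), 4 (0.50) or 5 (0.48) or BAL17VII replicate 3 (0.53). No call of Mag, Ugt8a, Opalin, Cryab or Car2 against PBS was lost in this way.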

How the data were processed

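Whole brains and cultured cells of BALB/c mice were profiled on Affymetrix whole-transcript arrays. The submitters' processing notes name RMA and Affymetrix Expression Console, without versions, for the deposited intensities. Whether brains and lines were normalized together is not given in the sources used here. The deposited intensities run from 2.72 to 17825, a linear scale, so log2 was taken. RMA applies background correction and makes arrays share a distribution, which can shift unchanged genes when many change one way. The labels' extraction entry reads as frozen sections with Trizol for every sample, lines included. Array medians lay between 81.7 and 93.0, and the number of arrays limits the precision.

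Of 35556 probe sets, 21789 carried 1 gene symbol, 1621 several and 12146 none, and 21698 of the first had an identifier in the gene table of GRCm38.p6. Of several probe sets, a gene took the one highest on average across all 32 arrays and was tested where it exceeded the array's median over all probe sets on at least 5 of 20 brain arrays, which left 11965 genes. A group-means model of the 20 brains was fitted with limma 3.58.1 in R 4.3.3 (empirical Bayes, two-sided, Benjamini-Hochberg over all genes, called at adjusted p under 0.05), tested on simulated data. Promoters came from RefSeq. Tables used Python 3.11.15 with pandas 2.3.3 and numpy 2.4.6, and plots matplotlib 3.10.9.

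The genes and all lists were chosen with earlier results of these data known. All 33 listed genes may be named; from each other list, the 3 called genes with the largest difference between BAL17 day 28 and PBS brains, and fixed marker genes. Others are marked as chosen after their values were seen. Every value is printed for the genes with the largest and smallest differences of each role at day 28, and for others the text turns on. Alternatives were quantile normalization, median centring, centring on the neuron or astrocyte list, other filters, a block for the replicate number, averaged probe sets, weighted arrays, other sets of arrays, moderation with a trend and robust, a minimum change of 0.5, and leaving out arrays. The brains' p-values rest on separate samples, which the labels number but do not describe further.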

Additional observations from a re-analysis of the deposited data

Results flagged for a closer look

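Of 124 sets of 5 brains, 1 for each of 31 genes in each of 4 groups, 7 held a brain far from the others, and chance alone gives about 1 in 20. Gjb1 (6.51, next 6.10), Cryab (9.23, next 8.36) and Bcas1 (7.83, next 7.33) had a high brain among the BAL17 brains at day 21, replicate 2 in each case. Mog (9.27, next 8.69) and Opalin (7.93, next 7.25) had a high brain among the BAL17VII brains, replicate 1 in each case. Nkx6-2 had a high PBS brain (7.89, next 7.62), and Myrf a low BAL17 brain at day 28 (7.33, next 7.55).

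The other 24 values are differences between the lines implanted, BAL17VII minus BAL17 brains at day 21, which limma called. They share the BAL17 brains, and so are not independent of each other or of the comparison with PBS. Among structural genes they are Opalin (1.23), Ermn (1.15), Bcas1 (1.10), Mag (0.85), Pllp (0.77), Mog (0.60), Plekhb1 (0.56), Cnp (0.50), Mbp (0.43) and Cldn11 (0.38). Among connexins and lipid enzymes they are Gjc3 (0.76), Gjb1 (0.71), Ugt8a (1.43), Aspa (1.16) and Fa2h (0.66). Among support genes they are Cryab (1.37), Car2 (1.09), Gpr37 (0.99), Qdpr (0.84), Enpp6 (0.79) and Trf (0.78). Among transcription factors they are Olig2 (0.48), Myrf (0.36) and Olig1 (0.36).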

How the results depend on the processing

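Counts of the 30 genes called kept their direction and stayed within 1.5 times under median centring, quantile normalization, other filters, averaged probe sets, trended and robust moderation, and fits of 2 groups or of all 32 arrays. Leaving out each array in turn gave 24 to 26 genes for BAL17 day 21 against PBS and 22 to 27 for day 28. For BAL17VII it gave 0 to 0 against PBS and 21 to 25 against BAL17. For day 28 against day 21 it gave 0 to 1. The calls over all 11965 genes ran from 4658 to 5937, 2624 to 3621, 247 to 1318, 1758 to 3884 and 44 to 272. Centring on the neuron list gave 16 called in either direction at day 21, 14 at day 28 and 2 for day 28 against day 21. Of all 11965 genes, 7882, 5787 and 423 were called there. The astrocyte list gave 15 at day 28 and 2 for day 28 against day 21, beside 3949 and 227 of all genes. A minimum change of 0.5 gave 17 at day 28, with no count made over all genes. Array weights gave 3 for day 28 against day 21, beside 620 of all genes. The cause was not tested, apart from the centring, which by construction removes what a gene shares with the list.

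With neuron or astrocyte centring these called falls changed sign at day 21: Cldn11 (0.12 and 0.11), Mbp (0.047 and 0.038), Myrf (0.13 and 0.12), Olig2 (0.015 and 0.0056) and Sox10 (0.17 and 0.16). At day 28 Myrf (0.059 and 0.0345) and Sox10 (0.068 and 0.044) did so under both and Cldn11 (0.0081) under neuron centring. In BAL17VII against BAL17 brains, astrocyte centring turned Myrf (-0.0023) and Olig1 (-0.005). With the replicate number as a block the counts of the 30 genes were 25, 26, 0, 24 and 0 for the 5 comparisons, and none of these counts changed. Over all genes the block raised the calls, from 599 to 813 for BAL17VII against PBS and from 2885 to 3200 for BAL17VII against BAL17. Over 30 pairs of brains with 1 number, deviations correlated at a median of 0.009 (-0.417 to 0.553). Over 120 pairs with different numbers the median was -0.007 (-0.566 to 0.429). What brains of 1 number share is not given by the labels. Genes such as Gal3st1, Nkx2-2, Myrf and Sox10 lay near the level of the cultured lines in PBS brains. Whether that level is array background or expression in the lines was not tested.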
